A study of Mus musculus with 4 samples.

Results

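The comparison described here sets liver RNA of LKO mice on a high-fat diet (HFD) against liver RNA of LKO mice on chow. Its members were picked by genotype from the sample labels, which gives 2 of the 4 arrays of the series, 1 for each diet. The other 2 arrays, from Lpiat1F/F (F/F) mice on the same diets, serve to show where the LKO diet difference departs from that of the control genotype. All mice were male, 24-wk-old and of C57BL/6 background, and they had eaten HFD-60 (Oriental Yeast) or CE2 chow (CLEA Japan) for 18 weeks, starting at 6 weeks of age. F/F mice carry floxed Lpiat1, the older name of Mboat7, and no Cre. LKO mice (Alb-Cre; Lpiat1F/F) carry in addition Cre driven by the albumin promoter, so the loss of the floxed exons 2 to 4 is aimed at hepatocytes. Whether all other liver cells kept the gene was not tested. The labels do not say whether the RNA on an array came from 1 mouse or was pooled.

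Mboat7 encodes an enzyme that attaches arachidonic acid to lysophosphatidylinositol and so shapes the acyl chains of phosphatidylinositol. Hepatocytes that take in much fat store it as triglyceride in droplets, burn it in mitochondria and peroxisomes, or export it in very low density lipoprotein (VLDL). A liver with long-standing fat overload is known to gain macrophages that take up lipid and stellate cells that lay down collagen, while hepatocyte functions such as drug metabolism often decline.

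Every array carried 62976 spots, among them 59305 spots of 56605 probes that are not controls, and the probes could be assigned to 23462 genes. The share of these spots well above background was 53.0% for LKO chow, 57.0% for LKO HFD, 54.2% for F/F chow and 54.6% for F/F HFD. Signals are given on a scale on which the 75th percentile of each array is 100, by the brightest probe of a gene. A difference is HFD minus chow on the log2 scale, so that 1 stands for 2-fold, and rose or fell is written only of genes at least 2-fold apart. Each condition has 1 array, so no difference has a replicate check, no test was made and the number of arrays limits the precision. Replicate spots of 300 probes within an array gave a technical spread, a SD of 0.09 for the difference of 2 spots well above background and of 0.67 for spots that are not. Where several probes of a gene were well above background on both LKO arrays (4912 genes), a pair of probes for the same gene differed in its diet values with a SD of 0.42. A gene well above background on only 1 of the 2 LKO arrays has a bound, written "at least": the bright signal is divided by the larger of the dim probe's own signal and the dimmest signal that still counted as well above background on the dim array. Lists count such genes by their bound. Such a gene has a value only in the direction of the array on which it passed, so its direction is set by the filter. Signals of different probes are ordered or summed only to call genes bright or dim and to give list totals. They do not rank the amounts of different RNAs.

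The targeted gene was measured first. Mboat7 had a signal of 497 on F/F chow, 449 on F/F HFD, 404 on LKO chow and 372 on LKO HFD. Its diet difference was -0.12 in LKO and -0.15 in F/F, and with the deposited value table the LKO difference was 0.03. The technical spread holds no spread between mice, so it cannot show whether the diet moved this gene. Its 1 probe could not be placed relative to exons 2 to 4, and a probe outside the deleted exons checks nothing.

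The liver label was checked against 14 genes of hepatocyte identity, each of them well above background on both LKO arrays. Alb, which encodes albumin, had a signal of 107150.0 on LKO chow and 75294 on LKO HFD, against 104430.0 and 84005 in F/F. Its difference was -0.51 in LKO, but 0.12 under quantile normalization. All 14 genes were lower on HFD, by a median of -0.52 (F/F -0.28), but under quantile normalization 5 of them were higher and the median was -0.06. Cps1, the entry enzyme of the urea cycle, was the member past 2-fold, at 3434 on chow and 1686 on HFD (-1.03, or -0.83 under quantile normalization). Fewer cells of a type and less RNA per cell cannot be told apart in whole liver, here and in all cell type lists that follow.

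Of 15242 genes with a value, 1238 rose on HFD in LKO (8.12%) and 621 fell (4.07%). Of these, 1008 and 488 were measured on both arrays and 230 and 133 are bounds. The median over all genes was -0.07, with 6627 genes higher and 8615 lower by any amount. Scaling mattered for this balance: with the values of the deposited table the median of all genes moved by 0.15, to 0.07, and the share of risen genes among those past 2-fold moved from 66.6% to 77.7%. Each gene taken at its own signal, without filter or bound, gave a share of 55.9%. In F/F, 800 of 15358 genes rose (5.21%) and 452 fell (2.94%), with a median of -0.02.

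Dim and bright genes moved differently. With the genes in 4 groups of equal size by signal, 14.6% rose and 8.19% fell in the dimmest group, which had a median signal of 8.35. Of the 3811 genes in that group, 2831 were measured on both LKO arrays. The others passed the filter through 1 array and count by bounds, so its shares depend in part on the filter. In the brightest group, with a median signal of 1594, 1.86% rose and 4.25% fell, and the median difference was -0.20 against 0.06 in the dimmest. The groups between had medians of 0.03 and -0.08. Quantile normalization, which removes a trend of this kind, raised medians of bright liver lists that lay below 0, some of them past 0. Other medians moved further from 0, such as that of NRF2 targets, from 0.10 to 0.50. The median under quantile normalization is given wherever it changes a direction. This scaling also turned the sign of these very bright genes, each with a difference under 2-fold: Scd1, Slc10a1, Fbp1, Bhmt, Mup20, C3, Ftl1, Col18a1 and Cox6a1. With normexp background correction, which here started from the median spot signal and added an offset of 50, there were 428 risen and 239 fallen genes. Of 232 genes picked for naming, 172 were past 2-fold and 119 of those stayed past 2-fold under normexp.

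**Figure D1:**
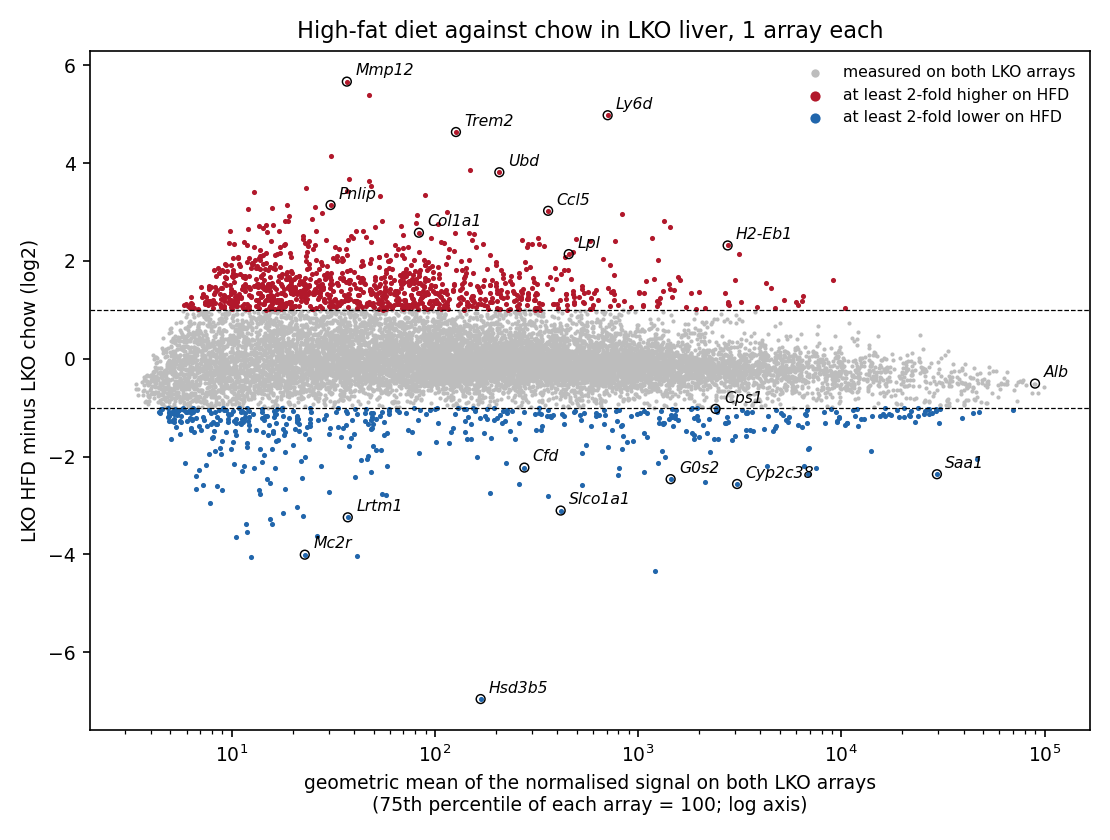
HFD minus chow in LKO liver (log2, vertical) against the mean normalised signal of both LKO arrays (horizontal, log axis), with 1 point for each of 14261 genes measured on both arrays. The 1008 genes at least 2-fold higher are red and the 488 at least 2-fold lower are blue. The bright end holds few red points.

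Among genes well above background on both LKO arrays, Mmp12, the elastase of macrophages, rose most. Its signal was 5.18 on LKO chow and 263 on LKO HFD, a 50.7-fold rise, while in F/F it was not above background on chow (0.852) and reached 61.5 on HFD. Gipc2, a PDZ domain protein, had 7.28 and 307 in LKO and 4.83 and 34.6 in F/F, a difference of 5.40 against 2.84. Ly6d, a surface protein of the Ly6 family, is the bright gene of this group, with 126 and 3976 in LKO and 109 and 1028 in F/F. Its differences were 4.98 and 3.24, so both genotypes rose and LKO rose further. The lipid receptor Trem2 followed with 4.63, the lysosomal protein Epdr1 with 4.15, the recombination factor Rad51b with 3.86 and the cytokine-induced ubiquitin-like protein Ubd with 3.81. The remaining 8 of the 15 most raised lay between 3.32 and 3.68: the trypsin inhibitor Spink1, the integrin Itgax, the membrane protease Adam8, the fatty acid elongase Elovl7, the actin bundler Pls1, the calcium binder S100g, the cornified envelope protein Sprr1a and the Rag GTPase Rragd. Each of the 15 was also higher on HFD in F/F, Mmp12 and Pls1 by bounds, and Adam8 least, by 0.91.

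Hsd3b5, a steroid dehydrogenase of male mouse liver, fell most. Its signal went from 1874 on LKO chow to 15.1 on LKO HFD, and from 3984 to 107 in F/F, which is a 124-fold fall in LKO. Mc2r, the corticotropin receptor, fell from 91.8 to 5.71 in LKO and from 96.8 to 17.6 in F/F. Both genotypes thus lost most of this signal. Slco1a1, a bile salt and organic anion transporter, had 1220.3 and 142 in LKO and 1301 and 231 in F/F, and its other probe gave -2.97 beside -3.11. The chemokine Cxcl13, which attracts B cells, fell by 12.3-fold, from 92.2 to 7.52. Lrtm1, a leucine-rich repeat membrane protein, behaved otherwise in F/F: it had 115 and 12.1 in LKO, 172 and 162 in F/F. The differences of the other 10 ran from -4.05 (the receptor Adgrf1) to -3.04 (chondromodulin, Cnmd), with the pseudogene Serpina4-ps1 at -4.04. Some of these are dim on HFD or rest on a single probe. The lipase family gene Lipn had -3.38 by its brightest probe and -0.50 by its other probe, and Dennd3, an activator of a Rab GTPase, had -3.16 by its brightest and 0.50 by its dimmest probe. The ranking holds only genes whose probes well above background on both LKO arrays gave the same sign. This left out Pax2, a developmental transcription factor chosen after its values were seen, which had 5439 on LKO chow and 267.5 on LKO HFD by its brightest probe and the opposite sign by another.

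Functions were compared through 45 gene lists, each read against the whole array, where 8.12% of the genes rose, 4.07% fell and the median was -0.07. The medians ran from 2.14 for lipid-associated macrophage genes to -0.96 for cytochromes P450. The lists for macrophages, antigen presentation, exocrine pancreas, chemokines, cell cycle, interferon response, fetal liver genes and collagens lay at the upper end, and those for several hepatocyte functions at the lower end.

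**Figure D2:**
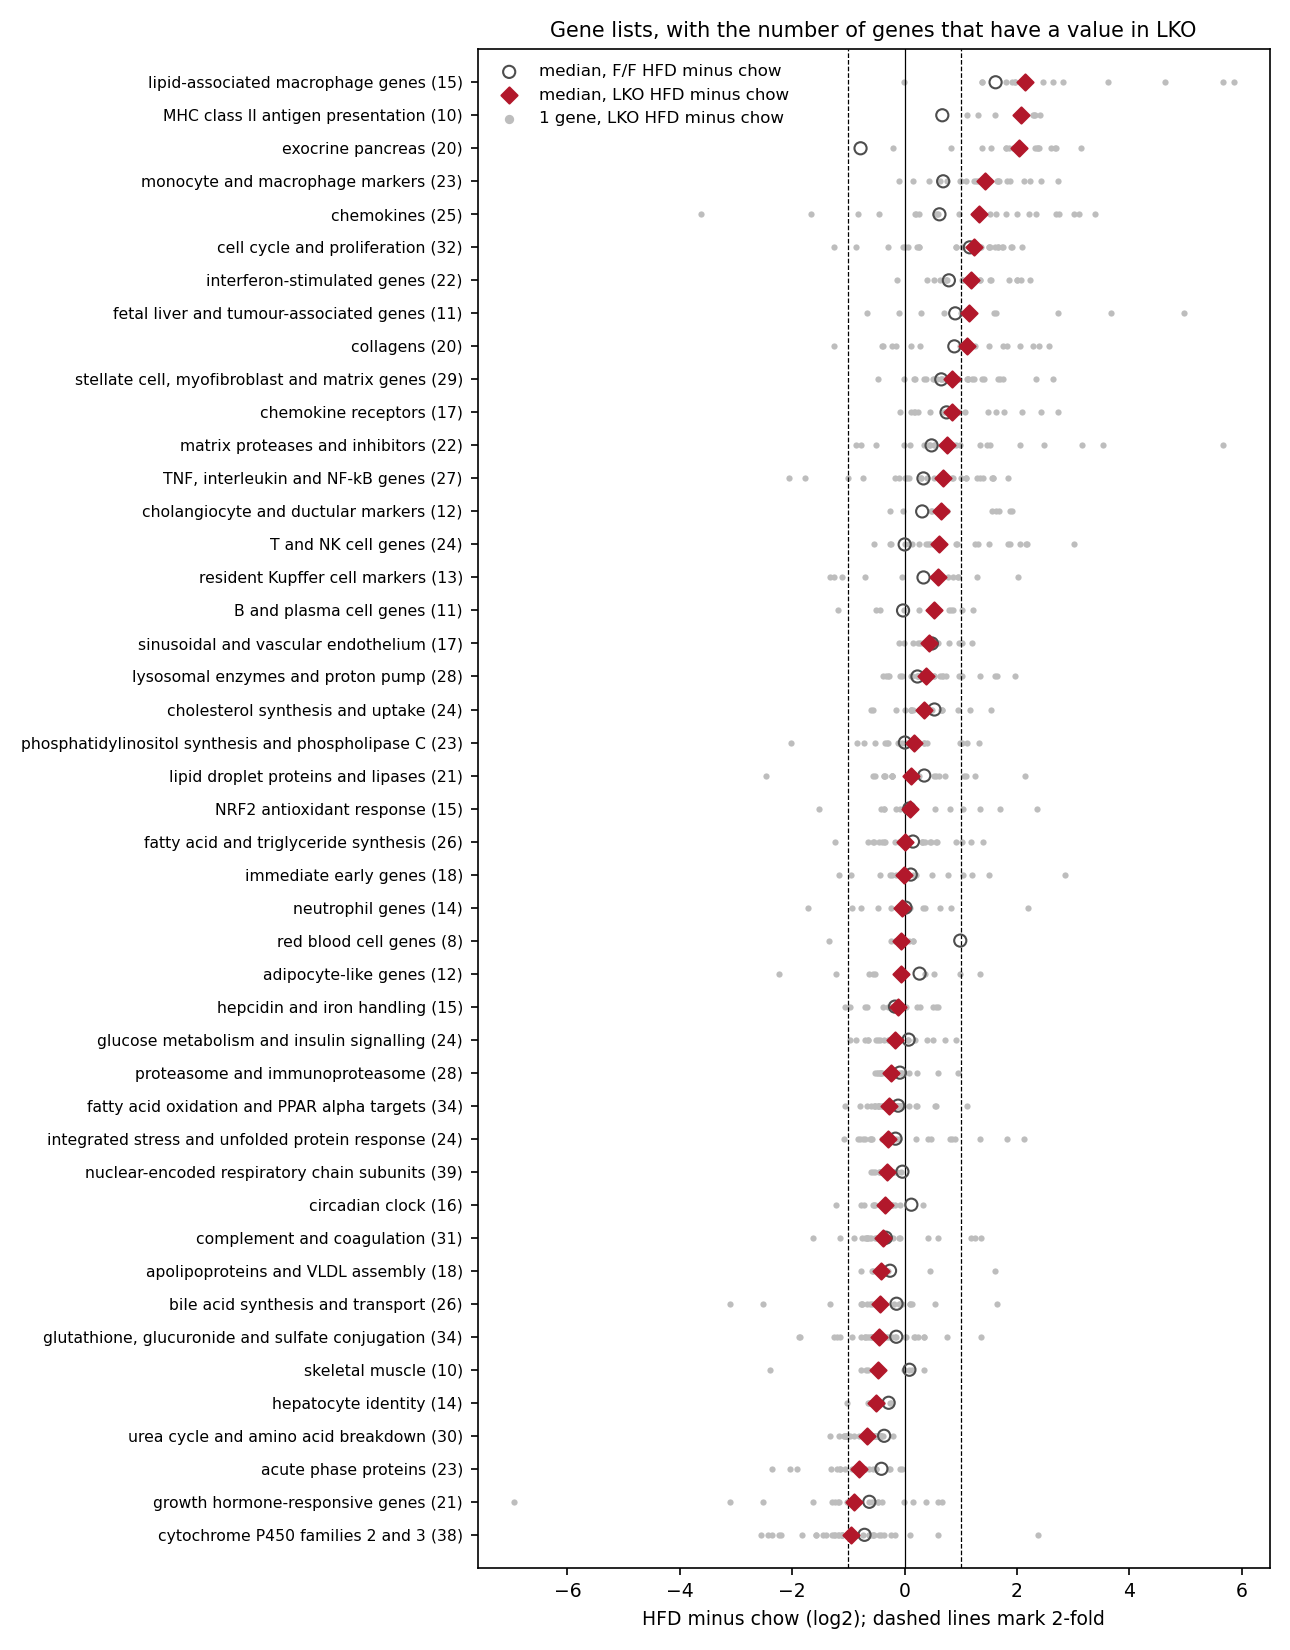
HFD minus chow (log2, horizontal) for 45 gene lists, with the number of genes that have a value in LKO behind each name. Grey points are genes in LKO, red diamonds the LKO median and open circles the F/F median. Medians run from 2.14 at the top to -0.96 at the bottom, and the open circle of the exocrine pancreas lies on the other side of 0.

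Lipid-associated macrophages are the cells that gather in fatty tissue and express Trem2. Of 15 list genes with a value, 14 rose and 0 fell, with a median of 2.14 (F/F 1.62, 9 risen). Trem2, a receptor that senses lipid and drives this cell state, had 25.5 on LKO chow and 633 on LKO HFD, against 16.6 and 134 in F/F. Gpnmb, a glycoprotein of lipid-laden macrophages, was not above background on either chow array and reached 220.1 on LKO HFD, at least 58.0-fold more, and 40.4 on F/F HFD. Itgax, which encodes CD11c, had 13.4 and 166 in LKO and 10.4 and 59.7 in F/F. All 3 were low on both chow arrays and highest on LKO HFD. Lpl, the lipase that frees fatty acids from lipoproteins, rose from 217 to 956 in LKO (2.14) and went from 201 to 371 in F/F (0.88), and its other 2 probes gave 1.89 and 2.12. The exception was Fabp5, a fatty acid binding protein that hepatocytes make as well, with 2320.1 and 2307 in LKO. On all 4 arrays 12 of the genes were measured, and for all 12 HFD minus chow was higher in LKO than in F/F, which for Fabp5 means a value nearer 0.

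General markers of monocytes and macrophages had a median of 1.42 (F/F 0.69), with 17 of 23 risen and 0 fallen. Ccr2, the receptor that brings monocytes out of the blood, was not above background on LKO chow and had 25.6 on LKO HFD, at least 6.65-fold more, or 0.64 under normexp. The fractalkine receptor Cx3cr1 had 12.6 and 67.7 in LKO and 8.04 and 33.9 in F/F, a difference of 2.43 against 2.08. Fcgr1, the high-affinity receptor for IgG, had 30.2 and 143 (2.24, F/F 0.90), and the scavenger receptor Msr1 17.6 and 77.0 (2.13, F/F 1.10). The brightest member, the growth factor receptor Csf1r, had 0.75 by this probe and -0.17 by its other probe. The list held 15 risen genes of 22 with a value under normexp. Its summed signal was 6704 on LKO chow and 13661 on LKO HFD, against 6786 and 9659 in F/F.

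Markers of resident Kupffer cells split. The list had 2 risen and 3 fallen genes among 13, with a median of 0.60 (F/F 0.34). By any amount, 8 were higher and 5 lower in LKO. Timd4, a phosphatidylserine receptor of long-resident Kupffer cells, fell in LKO from 71.8 to 33.1 (-1.12) and had 68.6 and 64.0 in F/F (-0.10), with -0.82 in LKO under normexp. The scavenger receptors Marco and Cd163 fell as well (-1.32 and -1.25), where F/F had -0.24 and -0.58. By contrast, Clec4f, a lectin restricted to Kupffer cells in mice, had 1416 and 2035 in LKO (0.52). Cd5l, a secreted macrophage protein, rose from 4132 to 10073, and the lectin Cd207 from 73.0 to 295. So the receptors Timd4, Marco and Cd163 were lower on HFD in LKO while Clec4f, Cd5l and Cd207 were higher.

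All 10 genes for antigen presentation by MHC class II with a value rose, and all 10 were higher under quantile normalization and with the deposited table too. Their median was 2.08, against 0.67 and 1 risen gene in F/F, and H2-DMb2 was not above background on either LKO array. H2-Ab1, a beta chain of the peptide-binding molecule, had 1499.5 on LKO chow and 6576 on LKO HFD, against 2084 and 3050.2 in F/F. Its 3 other probes gave 2.22 to 2.37 beside 2.13. H2-Eb1 had 1236 and 6154 in LKO and 1707 and 2710.1 in F/F. For both genes the LKO chow array was the lowest of the 4 and LKO HFD the highest. H2-DMa and H2-DMb1, which load the peptide, differed by 2.28 and 2.42 in LKO and by 0.84 and 0.84 in F/F, with H2-DMa at 0.71 in LKO by the mean of its probes. Under normexp 8 of 9 genes rose. The summed signal of the list went from 5422 to 22178 in LKO and from 6761 to 10395 in F/F.

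Chemokines, the attractants of immune cells, had a median of 1.32 (F/F 0.62), with 14 risen and 2 fallen among 25. Of these 25, 18 were measured on both LKO arrays, and the others count by bounds. Ccl2, which draws in monocytes through Ccr2, had 39.8 on LKO chow and 268 on LKO HFD, against 45.0 and 175 in F/F. Ccl5, a ligand for T cells, had 127 and 1029 in LKO and 185 and 513 in F/F. In both cases each HFD array was above each chow array, and LKO HFD was highest. Ccl4 rose alike in both genotypes (3.11 and 3.26), whereas the neutrophil attractant Cxcl5, not above background on LKO chow, was at least 10.5-fold higher on HFD in LKO and had -0.41 in F/F. Another neutrophil attractant, Cxcl1, fell from 5195 to 1632 in LKO and from 10358 to 711 in F/F. The receptors had a median of 0.84 (F/F 0.75), with 7 of 17 risen and 0 fallen, among them Ccr7, the homing receptor of dendritic cells (11.3 and 48.0), and Cxcr4 (at least 3.41-fold). Of the 17 receptors, 11 were measured on both LKO arrays. Ccr7 had 0.83 by its dimmest probe and Cxcr4 0.10 under normexp. Under normexp the medians were 0.68 for the chemokines and 0.34 for the receptors, and 7 of 22 and 2 of 14 rose.

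The list of TNF, interleukins and NF-kB genes had a median of 0.68 (F/F 0.34), with 10 risen and 3 fallen among 27. Tnf itself fell from 88.2 to 21.1 in LKO and from 131 to 25.7 in F/F by its brightest probe, but its dimmest probe had 0.38 in LKO. Il6 was above background on LKO HFD (13.6) and F/F chow (5.63) only, which makes it at least 3.58-fold higher on HFD in LKO, but it had 0.11 by the mean of its probes and 0.29 under normexp. The bacterial lipoprotein receptor Tlr2 rose from 43.1 to 129 in LKO, the receptor antagonist Il1rn from 40.8 to 122, and Tnfaip3, an inhibitor of NF-kB, from 44.7 to 132. Il1r1, the receptor of interleukin-1, fell in both genotypes (-1.77 and -1.46). The list thus held genes past 2-fold in both directions, 5 risen and 2 fallen of 26 under normexp.

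Interferon-stimulated genes had a median of 1.18 (F/F 0.79), and 15 of 22 rose, with 0 fallen. Oas1a, a sensor of double-stranded RNA, had 214 on LKO chow and 903 on LKO HFD, against 239 and 569.6 in F/F. Oasl2, a relative of it, had 39.2 and 158 in LKO and 52.5 and 95.0 in F/F. Both were slightly lower on LKO chow than on F/F chow and highest on LKO HFD. Ifi44 rose by 2.23 (normexp 0.99) and the T cell attractant Cxcl10 from 66.9 to 267, where F/F went from 111 to 252. Irf7, a transcription factor that amplifies the response and the brightest member, had 2024 and 3431 (0.76). Under normexp 8 of 21 genes rose.

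Their promoters were searched for the core of the interferon-stimulated response element (TTTC, 2 bases of any kind, TTTC) on both strands, in windows of 250 bases before and 50 after the start site from RefSeq (GRCm38.p6). The core was present in 12 of 20 promoters of the list (60.0%), in 3.44% of all 32851 promoters, in 5.64% of 1205 promoters of risen genes and in 3.06% of those of fallen genes. Among 15280 promoters of genes with a value, from which risen and fallen genes come, the share was 3.21%. A match is a description of the sequence and does not show a binding site. The promoters of Oas1a (chr5:120907476-120907775, minus strand), Cxcl10 (chr5:92348840-92349139, minus strand) and Isg15 (chr4:156200769-156201068, minus strand) are shown because each holds the core, with capitals marking it. Isg15, which encodes a ubiquitin-like protein, was chosen after its values were seen, for its run of overlapping matches, and rose from 407 to 824 in LKO (1.02). Counted with the start site as +1, the matches begin at -20 and -14 in Oas1a, at -213 in Cxcl10 and at -78, -72 and -66 in Isg15.
Oas1a: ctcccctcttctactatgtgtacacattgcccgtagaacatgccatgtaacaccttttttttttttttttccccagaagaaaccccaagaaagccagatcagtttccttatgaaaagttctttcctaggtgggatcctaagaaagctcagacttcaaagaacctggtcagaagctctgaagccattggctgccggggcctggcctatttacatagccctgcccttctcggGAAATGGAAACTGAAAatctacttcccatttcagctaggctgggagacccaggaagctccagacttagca
Cxcl10: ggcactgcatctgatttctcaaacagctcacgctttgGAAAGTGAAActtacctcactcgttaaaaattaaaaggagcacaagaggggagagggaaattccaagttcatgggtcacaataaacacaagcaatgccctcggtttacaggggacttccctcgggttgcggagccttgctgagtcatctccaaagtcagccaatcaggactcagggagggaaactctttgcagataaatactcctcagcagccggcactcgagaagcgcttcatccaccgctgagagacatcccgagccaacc
Isg15: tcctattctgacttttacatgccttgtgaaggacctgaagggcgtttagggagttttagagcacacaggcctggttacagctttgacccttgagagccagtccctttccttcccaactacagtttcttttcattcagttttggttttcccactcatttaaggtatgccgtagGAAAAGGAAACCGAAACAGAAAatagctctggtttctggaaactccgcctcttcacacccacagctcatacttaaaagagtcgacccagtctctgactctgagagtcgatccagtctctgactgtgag

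Another motif searched was the core of PU.1 (GAGGAAGT), a factor of macrophage genes. It was found in 3 of 22 promoters of the monocyte and macrophage list (13.6%), which belong to 2 of 18 genes, in 3.20% of all promoters, in 5.73% of the promoters of risen genes and in 2.89% of 588 promoters of fallen genes. The AP-1 motif TGANTCA was in 0 of 19 promoters of immediate early genes, in 7.81% of all promoters, in 9.63% of those of risen genes and in 9.35% of those of fallen genes. Among promoters of genes with a value its share was 5.87%.

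Lymphocyte genes were higher in LKO by less. T and NK cell genes had a median of 0.62, 9 of 24 risen and 0 fallen, against 0.00 and 1 risen in F/F, and under normexp 3 of 22 rose and the median was 0.32. The granule protease Gzma had 39.3 on LKO chow and 178 on LKO HFD, against 42.4 and 81.2 in F/F. Cd8b1, a chain of the CD8 coreceptor, had 8.20 and 36.6 in LKO and 10.3 and 19.7 in F/F, and the protease Gzmb 4.98 and 20.7 in LKO. Cd8b1 and Gzmb were dim on every array, and under normexp their differences were 0.70 and 0.51. The brightest member, Cd4, which macrophages express too, had -0.54. B and plasma cell genes had a median of 0.53 (F/F -0.03), with 2 of 11 risen and 1 fallen, and their median was -0.06 under normexp. The antibody joining chain Jchain rose from 64.5 to 130.5 in LKO and went from 56.5 to 45.7 in F/F, and the B cell coactivator Pou2af1 fell in both (-1.18 and -1.78). Under normexp 0 genes of this list were past 2-fold, with Jchain at 0.75 and Pou2af1 at -0.66.

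Neutrophil genes gave no direction, with a median of -0.04 (F/F 0.02) that was 0.13 with the deposited table and 0.01 under quantile normalization, 1 risen and 1 fallen gene among 14. The granule protein Ltf was at least 4.60-fold higher on HFD in LKO, and the protease Prtn3 at least 3.27-fold lower, both dim on all 4 arrays and within 2-fold under normexp (0.32 and -0.64). The brightest member, the receptor Csf3r, had 5517 and 3997 in LKO (-0.46).

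**Figure D3:**
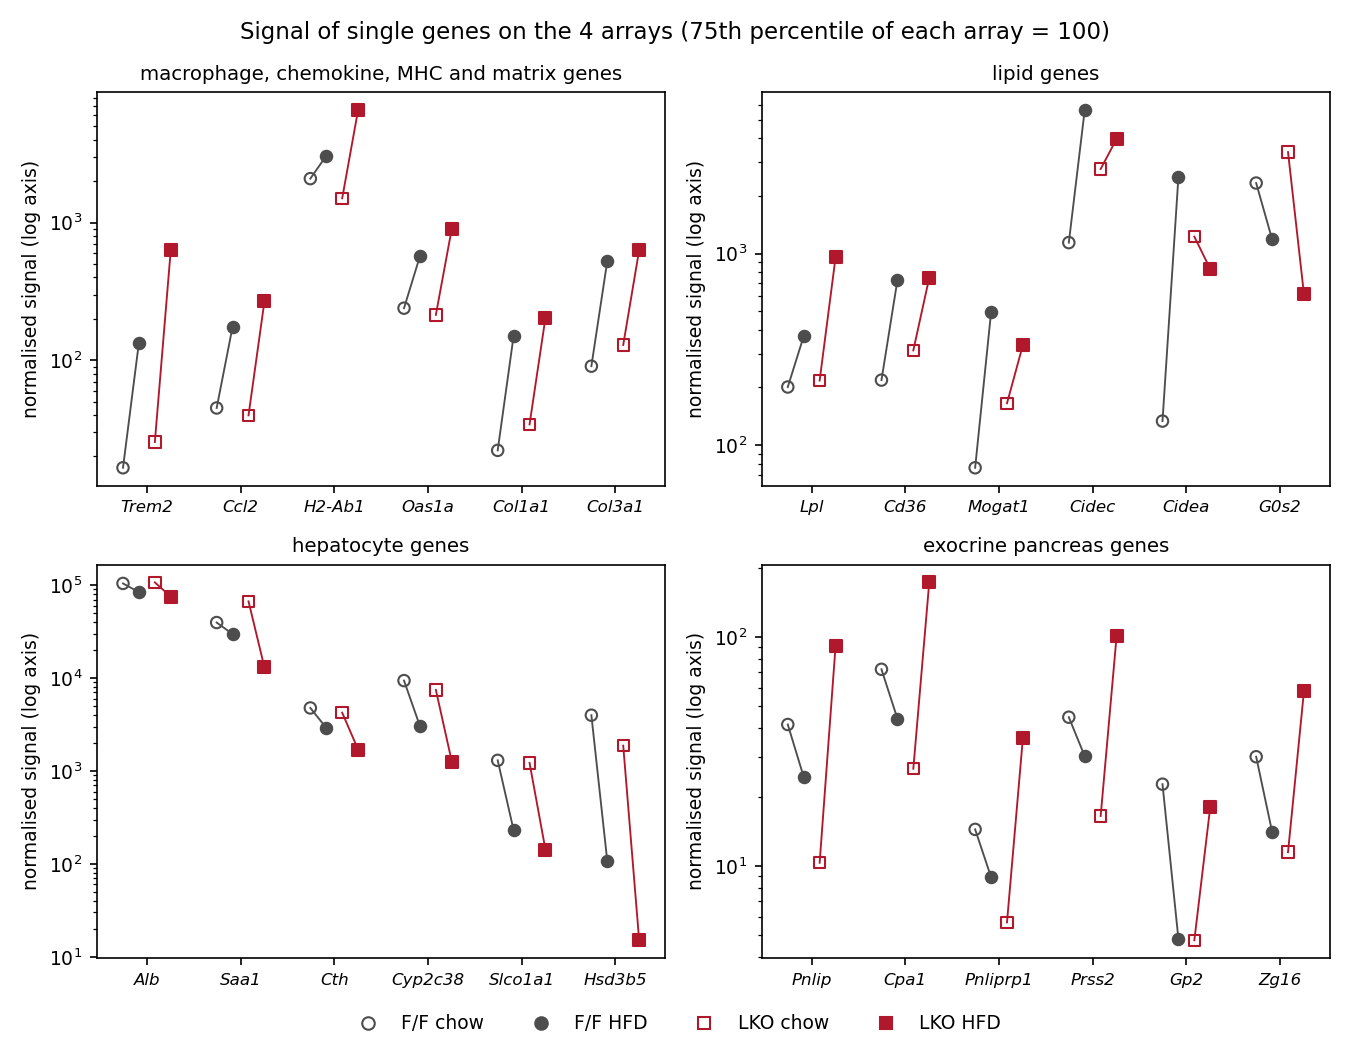
Normalised signal (log axis) of 24 genes on the 4 arrays, with 1 point for each array and lines joining chow to HFD within a genotype. Macrophage, chemokine, MHC and matrix genes were higher on HFD in both genotypes, Cidea and the exocrine pancreas genes moved in opposite directions, and the hepatocyte genes were lower on HFD in both, though Alb was higher in LKO under quantile normalization.

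Collagens are the fibres of scar tissue, made in liver mainly by stellate cells. Among 20 collagen genes with a value 12 rose and 1 fell, with a median of 1.11 (F/F 0.89, 9 risen), and under normexp 7 of 20 rose and 0 fell. On all 4 arrays 19 were measured, and for 9 of these HFD minus chow was higher in LKO than in F/F. Gene by gene, the median of the LKO minus the F/F difference was -0.05. Col1a1 had 34.2 on LKO chow and 204 on LKO HFD, against 22.1 and 150.2 in F/F, and its other 2 probes gave 2.63 and 2.65 in LKO. Col3a1 had 129 and 630.2 in LKO and 90.5 and 526 in F/F. Their differences of 2.58 and 2.29 in LKO stand beside 2.76 and 2.54 in F/F, so the rise of these fibrillar collagens was of similar size in both genotypes. Col6a6, a chain of beaded filaments, was above background on LKO HFD alone (19.8), at least 5.22-fold over LKO chow. Col8a1, of short-chain type, rose from 15.5 to 64.0. The brightest collagen, Col18a1, which hepatocytes make, had -0.22, and Col27a1 fell from 32.4 to 13.6 where F/F had 36.8 and 37.3. Under normexp Col6a6, Col8a1 and Col27a1 were within 2-fold (0.50, 0.95 and -0.79).

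Other genes of stellate cells, myofibroblasts and matrix had a median of 0.85 (F/F 0.65), with 12 of 29 risen and 0 fallen, but 3 of 27 risen under normexp. The matrix protein Thbs1 had 4.80 on LKO chow and 30.1 on LKO HFD, against 9.39 and 28.4 in F/F, and the growth factor Tgfb2 had 4.56 and 23.2 against 4.88 and 12.2. Both were dim, and under normexp their differences were 0.80 and 0.43. Loxl2, which crosslinks collagen, had 1.74 by its brightest and 0.51 by its other probe. Acta2, the smooth muscle actin of myofibroblasts, had 431 and 725 in LKO (0.75) and 427 and 618 in F/F (0.53). The brightest member, fibronectin (Fn1), which hepatocytes secrete, had -0.47. Matrix proteases and their inhibitors had a median of 0.76 (F/F 0.48), with 8 of 22 risen and 0 fallen, and 5 of 21 risen under normexp. Mmp13, a collagenase, was above background on the HFD arrays alone, at 33.9 in LKO and 12.0 in F/F, at least 8.94-fold higher in LKO (normexp 0.99). Mmp7, an epithelial protease, rose from 19.2 to 108 in LKO and was lower on HFD in F/F (47.5 and 29.6). Adam8 went from 14.3 to 166, and the inhibitor Timp1 had 171 and 246 (0.53).

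Markers of the other cells of the liver wall and ducts moved less. Sinusoidal and vascular endothelium had a median of 0.43 (F/F 0.49), with 2 of 17 risen and 0 fallen. Cd34, a marker of capillary endothelium, rose from 101 to 232 in LKO and went from 83.3 to 136 in F/F. The hyaluronan receptor Lyve1 rose from 180.2 to 365 (normexp 0.94), and the sinusoidal lectin Clec4g, the brightest, had -0.01. Markers of cholangiocytes and ductular reaction had a median of 0.65 (F/F 0.31), with 5 of 12 risen and 0 fallen. Of these 12, 9 were measured on both LKO arrays, and the others count by bounds. Spp1 (osteopontin), which also belongs to the lipid-associated macrophage list, had 373 and 1406 in LKO and 379 and 1259 in F/F. The tetraspanin Tspan8 rose by 1.88, the surface protein Cd24a by 1.62, and the mucin Muc1 was at least 3.22-fold higher. Under normexp the list median was 0.21 with 1 of 10 risen, and Tspan8, Cd24a and Muc1 had 0.49, 0.98 and 0.16.

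Cell cycle genes had a median of 1.23, near the 1.16 of F/F, with 21 risen and 1 fallen among 32. Of these 32, 26 were measured on both LKO arrays, and the others count by bounds. Cdc20, an activator of the anaphase-promoting complex, had 16.0 on LKO chow and 68.4 on LKO HFD, against 11.6 and 41.6 in F/F. Top2a, the topoisomerase of dividing cells, had 6.88 and 25.6 in LKO and 6.78 and 17.0 in F/F. These signals were low, and under normexp the median was 0.44 and 3 of 28 genes rose. The brightest member, the replication clamp Pcna, had -0.02, and the cyclin Ccne1 fell from 127 to 53.3 (normexp -0.92). Genes of fetal liver and liver tumours had a median of 1.14 (F/F 0.90), with 6 of 11 risen and 0 fallen. Besides Ly6d and Spink1 (10.6 and 136 in LKO), they included the imprinted RNA H19, with 5.76 and 38.2, and the Golgi protein Golm1, with 45.6 and 142. Under normexp 4 of 11 rose, and H19 had 0.93.

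Lipid synthesis depended on the scaling. The list for fatty acid and triglyceride synthesis had 13 genes higher and 13 lower, 3 risen and 1 fallen among 26, with a median of 0.01 (F/F 0.15) that was -0.09 by the mean of all probes. Under quantile normalization 19 were higher and 7 lower (median 0.22), and the deposited table gave 17 higher and 9 lower (0.16). Fatty acid synthase (Fasn) had 9940.1 on LKO chow and 14577 on LKO HFD, against 8272 and 11188 in F/F. Its regulator Srebf1 had 2463 and 3159 in LKO and 2779 and 5315 in F/F, a difference of 0.36 against 0.94. The desaturase Scd1, the brightest of the list, had -0.37, while its relative Scd2 rose from 65.8 to 173. Mogat1, which makes diacylglycerol from monoacylglycerol, had 165 and 334 in LKO and 76.1 and 493 in F/F. Its LKO chow signal was above that of F/F chow and its LKO HFD signal below that of F/F HFD, and its differences were 1.01 and 2.70, with 0.64 by its other probe in LKO. Mogat2 rose by 1.17 (normexp 0.61), and the elongase Elovl3 fell in both genotypes (-1.24 in LKO and -1.60 in F/F).

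Lipid droplet proteins and lipases had 4 risen and 1 fallen genes among 21, with a median of 0.11 (F/F 0.35) that was -0.05 without filter and bound and 0.31 under quantile normalization. Cd36, a fatty acid transporter, had 312 on LKO chow and 749 on LKO HFD, against 218 and 725 in F/F. Hsd17b13, a droplet-bound dehydrogenase, had 2664 and 5524 in LKO, 1.05 by this probe and 0.48 by its other. The lipoprotein receptor Vldlr rose from 50.9 to 108 in LKO and from 36.1 to 155 in F/F, with 0.83 in LKO under normexp. G0s2, an inhibitor of the main triglyceride lipase, went the other way, from 3396 to 616 in LKO and from 2339.6 to 1190.5 in F/F, so its fall of 5.51-fold started from the highest and ended at the lowest of the 4 signals. Plin2, the major coat protein of hepatocyte droplets and the brightest member, had 14107 and 15224 (0.11).

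Several genes better known from fat cells separated the genotypes by their chow level. Cidea, which enlarges droplets, had 133 on F/F chow, 2514 on F/F HFD, 1228 on LKO chow and 831 on LKO HFD. In LKO liver the chow signal was already above that on HFD, and its diet difference was -0.56 in LKO and 4.24 in F/F. Cidec, its relative, had 2772 and 3977 in LKO (0.52) and 1142 and 5641 in F/F (2.30). Pparg, the transcription factor of fat cells, had 778 and 746 in LKO (-0.06) and 368 and 995 in F/F (1.44). For these 3 genes LKO chow lay above F/F chow, and LKO HFD below F/F HFD. Cfd, the complement protease adipsin, fell from 596 to 127 in LKO and rose from 562 to 1902 in F/F, and its other probe gave -2.28 in LKO. The fatty acid binding protein Fabp4 rose from 634 to 1603. The adipocyte-like list as a whole had a median of -0.07 (F/F 0.27), 0.07 with the deposited table, with 1 risen and 2 fallen among 12, and its summed signal was 3115 on F/F chow, 12609 on F/F HFD, 6254 on LKO chow and 7515 on LKO HFD.

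Cholesterol synthesis and uptake had 21 of 24 genes higher and a median of 0.35 (F/F 0.53), with 2 risen and 0 fallen. Hmgcs1, which makes the precursor of mevalonate, had 2151 on LKO chow and 4826 on LKO HFD, against 2043 and 5264 in F/F. Mvd, the mevalonate decarboxylase, had 39.9 and 115 in LKO and 43.3 and 117 in F/F. Both rose in each genotype. The squalene epoxidase Sqle had 641 and 1239 in LKO, a difference of 0.95 against 0.69 in F/F. The promoter of Hmgcs1 (chr13:119690101-119690400, plus strand) is shown because it holds the sterol regulatory element core TCACNCCAC, in capitals, from -137. On either strand this core was in 1 of 20 promoters of the list, in 1.24% of all promoters, in 0.996% of those of risen genes and in 1.53% of those of fallen genes. Among promoters of genes with a value the share was 1.20%.
Hmgcs1: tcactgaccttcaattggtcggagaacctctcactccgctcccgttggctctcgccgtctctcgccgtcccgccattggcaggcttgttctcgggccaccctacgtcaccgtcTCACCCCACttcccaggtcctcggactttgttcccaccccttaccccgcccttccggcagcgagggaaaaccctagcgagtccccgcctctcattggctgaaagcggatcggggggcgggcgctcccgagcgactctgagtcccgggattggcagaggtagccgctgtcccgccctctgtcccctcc

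Fatty acid oxidation and PPAR alpha targets had a median of -0.28 (F/F -0.12), with 28 of 34 genes lower, but under quantile normalization the median was 0.01 and 17 genes were higher. There was 1 risen and 1 fallen gene in LKO, against 0 and 6 in F/F. Pdk4, a brake on glucose oxidation, and the omega-hydroxylase Cyp4a10, both chosen after their values were seen, fell in F/F (-2.24 and -1.67) and had -0.37 and -0.47 in LKO. The thioesterases Acot2 and Acot1 moved apart: Acot2 had 229.6 and 499 in LKO and 377 and 238 in F/F, and Acot1 had 4667 and 2243 in LKO and 7934 and 1786 in F/F. Acot2 rose in LKO alone, and Acot1 fell in both, although in LKO it had -0.85 under quantile normalization. Cpt1a, the gate of mitochondrial oxidation, had 6127 and 4615 (-0.41, F/F 0.18), the omega-hydroxylase Cyp4a14 288 and 223 (-0.37, F/F -1.24), and the hormone Fgf21 115 and 133 (0.22, F/F 0.62). The PPAR response element, AGGTCA repeated with 1 base between, was in 0 of 27 promoters of the list and in 0.0396% of all promoters. Among promoters of genes with a value the share was 0.0524%.

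Apolipoproteins and VLDL assembly genes had a median of -0.42 (F/F -0.26), with 16 of 18 lower, and of -0.06 under quantile normalization with 10 lower. Apoa4, an apolipoprotein of lipid export, was the member that rose, from 5189.7 to 15840.0 in LKO and from 2948 to 26474 in F/F, so the rise was 1.61 against 3.17. The brightest, Apoc1, had -0.57. Bile acid synthesis and transport had a median of -0.43 (F/F -0.14), -0.26 under quantile normalization, with 1 risen and 3 fallen among 26. Cyp7b1, of the alternative pathway, fell from 5098 to 892 in LKO and from 5493 to 1530.0 in F/F. Cyp2c70, which makes muricholic acids, fell from 10765 to 4314. Cyp7a1, the first enzyme of the classic pathway, had 193 and 282 in LKO (0.55) and 575 and 559 in F/F, with LKO chow the lowest of the 4. Cyp8b1, which leads to cholic acid, had 722 and 556 in LKO (-0.38) and 0.51 in F/F. The exporter subunit Slc51b was at least 3.14-fold higher (normexp 0.09), and the main importer Slc10a1, the brightest, had -0.41.

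The pathway of the targeted enzyme was read as a list of its own. The list of phosphatidylinositol synthesis and phospholipase C had a median of 0.16 (F/F 0.01) that was -0.03 under normexp, with 3 risen and 1 fallen among 23, and 1 and 0 under normexp. Cds2, which makes the CDP-diacylglycerol used for phosphatidylinositol, is the brightest and had 1642 and 1834 in LKO (0.16). Plcg2, the phospholipase C of blood cells, rose from 58.2 to 146 in LKO and went from 57.7 to 101 in F/F. Plcb2 and Plcxd3, dim on every array, rose by 1.02 and 1.11, and under normexp their differences were 0.07 and -0.03. Plch2 was above background on LKO chow alone (10.7), at least 4.05-fold lower on HFD, but -0.29 by the mean of its probes.

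Glucose metabolism and insulin signalling held 0 risen and 0 fallen genes among 24 in LKO, against 1 and 1 in F/F. Its median was -0.18 (F/F 0.07), but 0.08 under quantile normalization. Pck1, an enzyme of glucose output, had 24334 on LKO chow and 15551 on LKO HFD (-0.65) and 23909 and 21839 in F/F (-0.13). G6pc, also of this list and chosen after its values were seen, went in opposite directions. It had 6174 and 3392 in LKO (-0.86) and 3822 and 7993 in F/F (1.06). The brightest member, the phosphatase Fbp1 of gluconeogenesis, had -0.29.

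Enzymes of the urea cycle and of amino acid breakdown were lower on HFD in LKO without exception under the main scaling. All 30 were lower and 10 fell, with a median of -0.67 (F/F -0.36, 1 fallen), and under quantile normalization 28 were lower, with a median of -0.47. Several lay just past 2-fold, and under normexp 3 fell. Cth, which releases cysteine from cystathionine, had 4240.5 on LKO chow and 1700.4 on LKO HFD, against 4768 and 2912 in F/F. Hpd, of tyrosine breakdown, had 17596 and 7833 in LKO and 16406 and 11506 in F/F. For both, LKO HFD was the lowest of the 4 signals. Aass, of lysine breakdown, and Gnmt, which uses up methyl groups, fell by 2.12-fold and 2.11-fold. Under quantile normalization Hpd, Aass and Gnmt were within 2-fold (-0.84, -0.83 and -0.61). Bhmt, the brightest, had -0.49. The summed signal was 367388 on LKO chow and 221851 on LKO HFD, against 361589 and 276151 in F/F.

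Cytochromes P450 of families 2 and 3, which oxidise drugs, steroids and fatty acids, had the lowest median of the lists, -0.96 (F/F -0.71), or -0.74 under quantile normalization. Of 38 genes 19 fell and 1 rose. Cyp2c38 had 7459.8 on LKO chow and 1263 on LKO HFD, against 9392 and 3039 in F/F. Cyp2c54 had 15556 and 3042 in LKO and 18815 and 6135 in F/F, and Cyp2c37 had 16360.0 and 3476 in LKO and 21489 and 7514 in F/F. These arachidonic acid and drug oxidases of subfamily 2C fell in both genotypes and further in LKO. The family 3 gene Cyp3a11, chosen after its values were seen, fell further in F/F, from 8998 to 2252, than in LKO, from 10447 to 3972. Whether probes of subfamily 2C bind RNA of several members was not tested. The bright Cyp2e1, an ethanol oxidase, had -0.62. Cyp2b13, of a subfamily more active in female liver, was at least 5.21-fold higher in LKO (normexp 0.48) and rose from 5.30 to 175 in F/F, while its relative Cyp2b9 had 555 and 838 in LKO (0.59) and 836 and 5123 in F/F (2.61). Enzymes of glutathione, glucuronide and sulfate conjugation had a median of -0.46 (F/F -0.15), -0.21 under quantile normalization, with 1 risen and 5 fallen among 34. The glucuronosyltransferase Ugt2b1 fell from 2517 to 682, the sulfotransferase Sult5a1 from 97.4 to 26.9, and the microsomal transferase Mgst3 rose from 352 to 905.

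Growth hormone-responsive genes, many of them specific to male liver, had a median of -0.89 (F/F -0.63, normexp -0.52), with 9 of 21 fallen, 6 of 21 under normexp, and 0 risen. Besides Hsd3b5, Slco1a1 and Cyp7b1, the complement chain C8b fell from 4347 to 1398 in LKO and from 4737 to 1181 in F/F. The brightest member, the urinary protein Mup20, had -0.47. Hsd3b5, Slco1a1, Cyp7b1 and C8b thus fell in both genotypes. For other members the difference was larger in F/F, among them the cytokine signal inhibitors Cish and Socs2, chosen after their values were seen. Cish fell in both genotypes (-1.17 in LKO, -3.29 in F/F), and Socs2 fell in F/F alone (-0.59 and -2.73).

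Acute phase proteins are secreted by hepatocytes under cytokine control. All 23 were lower on HFD in LKO and 8 fell, with a median of -0.81 (F/F -0.41), while under quantile normalization 20 were lower and the median was -0.39. Serum amyloid A (Saa1) had 66998 on LKO chow and 13032 on LKO HFD, against 39609 and 29776 in F/F. Saa2 had 94637 and 22926 in LKO and 65276 and 45374 in F/F. For both, LKO chow was the highest and LKO HFD the lowest of the 4 arrays, and the differences were -2.36 and -2.05 against -0.41 and -0.52. Saa4 fell from 4383 to 1160.3 and the protease inhibitor Serpina3n from 4362 to 1769. Haptoglobin (Hp), the brightest, had -0.52. Complement and coagulation had a median of -0.39 (F/F -0.33), -0.13 under quantile normalization, with 3 risen and 2 fallen among 31. The risen genes were C1qa, C1qb and C1qc, the chains of C1q that macrophages make, with 1.18, 1.36 and 1.26. The fallen ones were C8b and the coagulation factor F7 (-1.15), and the bright hepatocyte gene C3 had -0.47.

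Organelle lists moved by small amounts. Respiratory chain subunits of the nuclear genome had 0 genes past 2-fold, but all 39 were lower in LKO, between -0.59 and -0.06, with a median of -0.32 (F/F -0.04). Under quantile normalization 12 of them were higher and the median was -0.05. The brightest, the cytochrome oxidase subunit Cox6a1, had 59311 and 48104 in LKO. Proteasome subunits had a median of -0.24 (F/F -0.08), -0.05 under quantile normalization, with 0 risen and 0 fallen among 28, and the brightest, Psmb6, had -0.34. Lysosomal enzymes and proton pump genes had a median of 0.38 (F/F 0.23), 0.62 under quantile normalization, with 5 of 28 risen, 2 under normexp, and 0 fallen. The risen ones were Ctss, a protease of antigen-presenting cells, from 1717 to 5224, the pump subunit Atp6v0d2, from 13.9 to 54.5, the leukocyte protein Laptm5 (1.65), Ctse by a bound, and Ctsk, chosen after its values were seen (1.02). Lamp1, the bright membrane protein of all lysosomes, had 0.11.

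NRF2 targets had a median of 0.10 (F/F 0.08), with 4 risen and 1 fallen among 15, but under quantile normalization the median was 0.50 and 12 genes were higher. The carbonyl reductase Cbr3 had 133 on LKO chow and 678 on LKO HFD, against 123 and 359 in F/F, and the quinone reductase Nqo1 had 47.8 and 98.4 in LKO. The sulfiredoxin Srxn1 rose from 1147 to 2920.4, the peroxidase Gpx2 from 4.66 to 15.1 at a dim signal, and Osgin1, an oxidative stress growth inhibitor, fell from 1812 to 629. Under normexp Nqo1 and Gpx2 were within 2-fold (0.70 and 0.35). Genes of the integrated stress and unfolded protein responses had a median of -0.30 (F/F -0.16), -0.10 under quantile normalization, with 3 risen and 1 fallen among 24. Atf3, a stress-induced transcription factor, had 48.5 and 171 in LKO and 39.2 and 446 in F/F, so it rose in both and further in F/F. Trib3, a pseudokinase, rose from 196 to 500.4, the serine synthesis enzyme Psat1 from 7.98 to 35.0, and Creld2, a chaperone of the endoplasmic reticulum, fell from 3552 to 1674. Psat1 had 0.68 under normexp, and Creld2 -0.89 under quantile normalization. Immediate early genes had a median of -0.02 (F/F 0.11), 0.13 with the deposited table and 0.07 under quantile normalization, with 4 risen and 1 fallen among 18. Egr2 rose by 2.85, Nr4a1 from 111 to 313, Klf6 by 1.20 and Fos by 1.03, all transcription factors, and Junb, another, fell (-1.16). Fos had 0.84 under normexp, and Junb -0.94 under quantile normalization.

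Circadian clock genes were lower on HFD in LKO, 15 of 16 by any amount and 14 under quantile normalization, with a median of -0.34, against 0.12 in F/F, where 1 rose and 3 fell. The member higher in LKO was the activator Arntl, chosen after its values were seen, with 47.9 and 60.1 in LKO (0.33) and 65.4 and 11.8 in F/F (-2.47). The repressor Nfil3 was the gene that fell, from 1941 to 835 in LKO and from 2011 to 518 in F/F. Tef, the brightest, a factor of the output loop, had 6388 and 3882 in LKO (-0.72) and 6196 and 6782 in F/F. The labels give no time of day for the samples. Hepcidin and iron handling genes had a median of -0.12 (F/F -0.17), but 0.11 under quantile normalization and 0.03 with the deposited table, with 0 risen and 1 fallen among 15. The hormone hepcidin (Hamp) had 8698 and 7050.3 in LKO (-0.30) and 11493 and 6396 in F/F (-0.85). The iron and zinc importer Slc39a14 fell from 1549 to 741 (-0.92 with the deposited table), and ferritin light chain (Ftl1) had -0.39 by its brightest and 0.14 by its other probe.

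Genes of tissues outside the liver were checked as well. Of 23 exocrine pancreas genes on the array 20 had a value, 18 rose in LKO and 0 fell, with a median of 2.03, against -0.78 and 3 fallen in F/F. Pancreatic lipase (Pnlip) had 41.5 on F/F chow, 24.5 on F/F HFD, 10.3 on LKO chow and 91.1 on LKO HFD. The carboxypeptidase Cpa1 had 72.2, 44.0, 26.6 and 173 in the same order. For both, LKO chow was the lowest and LKO HFD the highest of the 4. The lipase relative Pnliprp1 and the trypsinogen Prss2 rose by 2.68 and 2.61, and so did Gp2 and Zg16, zymogen granule genes outside the list, by 1.94 and 2.33. Under normexp Pnliprp1 and Gp2 were within 2-fold (0.85 and 0.33), and 14 of 20 list genes rose. The summed signal was 6587 on F/F chow, 3678 on F/F HFD, 4215 on LKO chow and 8136 on LKO HFD. The brightest probe of the list, that of the elastase Cela1, had -0.20 in LKO, and without it the sums were 3019, 1624, 1730.5 and 5973. Prss1, Pnliprp2 and Pla2g1b were not above background on either LKO array. The part of pancreatic tissue in these values was not tested.

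Red blood cell genes had a median of -0.06 in LKO, 0.09 with the deposited table and 0.01 under quantile normalization, against 0.99 in F/F. Of 12 on the array 8 had a value, with 0 risen and 1 fallen. The brightest probe, of the globin Hba-a1, had 6856 and 7640.3 in LKO and 6959.6 and 15120.0 in F/F. Alas2, which starts haem synthesis in red cell precursors, fell from 2117 to 834. The summed signal was 17706 on LKO chow and 17970.1 on LKO HFD, against 17811 and 35480.3 in F/F, and Epb42 and Gata1 were among those not above background on either LKO array. Skeletal muscle genes had a median of -0.48 (F/F 0.09), with 0 risen and 1 fallen among 10 of 12. The fallen gene was the myosin Myh4, at least 5.26-fold lower at 13.9 on LKO chow but -0.43 by the mean of its probes and -0.79 under normexp, the brightest probe was that of the calcium buffer Pvalb (-0.65), and Ckm and Actn3 were not above background. The sums were 134, 162, 285 and 213 in the order F/F chow, F/F HFD, LKO chow and LKO HFD. The part of blood and muscle in other results was not tested.

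The diet difference of LKO was set beside that of F/F, with which it shares no array. Across 13981 genes measured on all 4 arrays, Pearson's r of both differences was 0.70. Genes are not independent replicates, and this r describes 4 arrays. Of the genes that rose in LKO, 448 also rose in F/F, which is 36.2% of the LKO list and 56.0% of the F/F list. Of those that fell in LKO, 207 also fell in F/F, which is 33.3% and 45.8%. Over the alternatives these shares ran from 23.4% to 41.2% and from 47.4% to 59.3% for risen genes, lowest under normexp, and from 26.7% to 34.8% and from 29.8% to 56.5% for fallen genes. Most of the rest moved the same way by less: of 1182 risen genes with a value in F/F, 1107 were higher there too, and of 559 fallen genes 507 were lower. Among all 15358 genes with a value in F/F, 7334 were higher and 8024 lower by any amount. Genes 2-fold apart in opposite directions numbered 7 among the risen and 4 among the fallen.

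The size of the difference can be compared only with regard to how the genes were picked. Risen LKO genes measured on all 4 arrays (969) had a median of 1.40 in LKO and 0.84 in F/F, and for 834 of them the difference was higher in LKO. Fallen LKO genes (463) had -1.26 and -0.77, and for 391 it was lower in LKO. Genes picked in F/F gave the reverse by a smaller margin, with 1.19 in LKO and 1.32 in F/F for 602 risen genes and -1.10 and -1.30 for 307 fallen genes. Taken with its sign, the LKO diet difference exceeded that of F/F by 2-fold or more for 340 genes. For 279 genes it lay below that of F/F by as much. These counts do not compare sizes. Among the 279, Cidea moved further in F/F (4.24, LKO -0.56) and Lrtm1 further in LKO (-3.24, F/F -0.09). The genes furthest apart upward in LKO were Gp2, Pnlip, Cpa1, Pnliprp1 and Zg16, and those furthest apart downward were Cidea, Grin3b (a glutamate receptor subunit), Cfd, Lrtm1 and Gm12718. Grin3b had 16.9 and 8.40 in LKO and 6.33 and 59.6 in F/F, and -0.59 in LKO under normexp. The predicted gene Gm12718 had 37.3 and 2.99 in LKO and 56.3 and 36.8 in F/F. None of these differences between genotypes was tested.

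**Figure D4:**
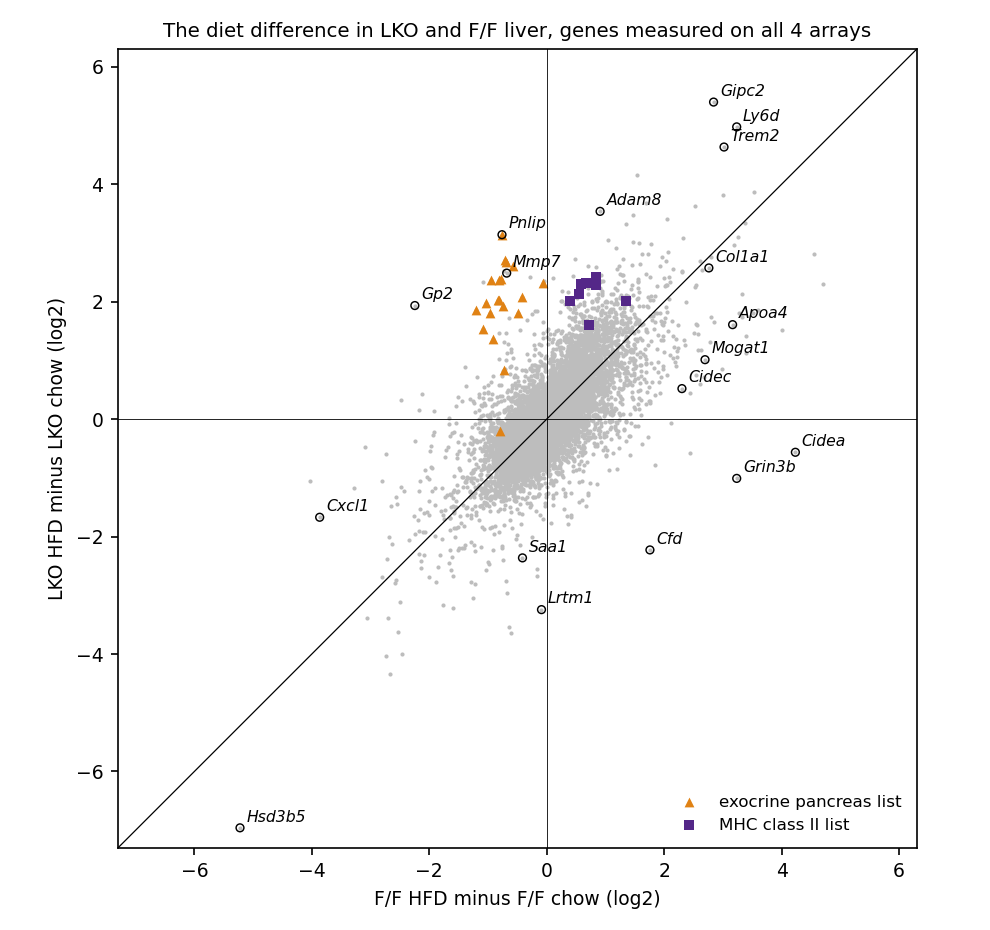
HFD minus chow (log2) in LKO (vertical) against F/F (horizontal) for 13981 genes measured on all 4 arrays, with the diagonal of equal differences. Exocrine pancreas genes (orange triangles) lie left of 0 and, apart from Cela1, above it, MHC class II genes (purple squares) lie above the diagonal, and Cidea, Grin3b and Cfd lie at the lower right.

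Probes without an assigned gene were counted apart. Of 8820 such probes with a value, 313 rose (3.55%) and 674 fell (7.64%), so the balance was the reverse of that among named genes. What these probes measure is not given in the files used.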

How the data were processed

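Whole-genome Agilent 1-color arrays, 1 for each of 4 conditions, were read on 1 slide in 1 scan. The authors extracted spot intensity with Feature Extraction 12.0.3.1 (per the submitters' processing notes), and the deposited signal is their processed intensity after background subtraction. A deposited value table holds the same signal times 1 factor for each array (2.60 F/F chow, 2.41 F/F HFD, 2.63 LKO chow, 2.10 LKO HFD), with column medians of 34.5, 36.1, 33.2 and 36.0. The files do not say where these factors come from.

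Here the processed signal was taken to log2 and the array's own 75th percentile subtracted (Python 3.11.15, pandas 2.3.3, numpy 2.4.6, figures with matplotlib 3.10.9). Replicate spots were averaged. The probe with the highest mean over all 4 arrays stood for its gene. It then had to be well above background on at least 1 LKO array, or the gene had no value in LKO. The 75th percentile signals were 222, 263, 213 and 296 in the same order, with 0 saturated spots. Of 56605 probes, 33767 (59.7%) were matched to the RefSeq table of GRCm38.p6. The files give no probe coordinates. There was no gene-level test. The threshold was 2-fold.

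The members and the 45 lists were chosen with earlier results of these data known. Named genes are the 15 most raised and 15 most lowered whose probes gave the same sign, up to 4 in each list and direction past 2-fold, the brightest of each list, 5 at each end against F/F, and 36 genes given by name. For the alternatives (12 planned, 1 added), limma 3.58.1 in R 4.3.3 made the normexp correction with an offset of 50, on the median spot signal since the files hold no mean. The steps were tested on simulated data.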

Additional observations from a re-analysis of the deposited data

Results flagged for a closer look

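The 45 lists and the 232 named genes were screened, and no other genes. The values here were singled out because HFD minus chow in LKO and in F/F had opposite signs and both lay further from 0 than the SD of 0.09 between replicate spots, or than 2 SD for single genes. This rule only picks values to show. The SD holds no spread between mice and is not the spread of a list median, so passing it shows no effect of diet or genotype. Other lists with opposite signs had a median closer to 0 than this SD in at least 1 genotype. Among lists, exocrine pancreas genes had a median of 2.03 in LKO and -0.78 in F/F, and circadian clock genes -0.34 in LKO and 0.12 in F/F. The pancreas genes Pnlip (3.14 in LKO, -0.76 in F/F), Cpa1 (2.70 and -0.71), Pnliprp1 (2.68 and -0.69) and Prss2 (2.61 and -0.57) had the same signs as their list, and so did the granule genes Zg16 (2.33 and -1.09) and Gp2 (1.94 and -2.24) outside it. Other genes of the 232 higher on HFD in LKO and lower in F/F were Mmp7 (2.49 and -0.68), Gpx2 (1.69 and -0.34), Acot2 (1.12 and -0.67) and Jchain (1.02 and -0.31). Arntl, given above but outside the 232, met the same rule (0.33 and -2.47). Bounds gave the same for Cxcl5 (at least 3.39 in LKO, -0.41 in F/F), Il6 (1.84 and -0.83, both bounds) and Muc1 (at least 1.69, and -0.25). The reverse held for Cfd (-2.23 in LKO, 1.76 in F/F), Grin3b (-1.01 and 3.24), Cidea (-0.56 and 4.24) and Cyp8b1 (-0.38 and 0.51). It also held for G6pc (-0.86 and 1.06), given above but outside the 232. Under normexp some LKO values were within 2-fold: Il6 had 0.29 (0.11 by the mean of its probes), Muc1 0.16, Gp2 0.33, Gpx2 0.35, Jchain 0.75, Pnliprp1 0.85 and Grin3b -0.59. The difference between the genotypes was not tested for any of them.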

How the results depend on the processing

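Against 1238 risen and 621 fallen genes in LKO, normexp gave 428 and 239, no filter or bound 1912 and 1508, a signal of at least 50 on an LKO array (an alternative chosen after the data were seen) 620 and 302, a 1.5-fold threshold 2347 and 1789, and a 4-fold threshold 209 and 116. Fewer or more genes pass a filter or threshold by construction. For normexp the cause was not tested. The other scalings, filters and probe choices gave 1008 to 1549 risen and 445 to 653 fallen genes.

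List medians changed sign as follows. With quantile normalization, PPAR alpha targets had 0.011, glucose metabolism 0.078 and iron handling 0.110, the last 0.031 with the deposited table. Lipid droplet genes had -0.054 without filter and bound, B and plasma cell genes -0.056 under normexp, and the phosphatidylinositol list -0.026 under normexp and -0.044 at a signal of at least 50. Of the named genes, Dennd3 had 0.50 by its dimmest probe, Plcxd3 -0.028 under normexp, and Tnf 0.29 by the mean of its probes and 0.38 by its dimmest. The cause was not tested. Other named genes past 2-fold kept their sign. Of medians and genes nearer 0, some changed sign with the scaling.

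No paired analysis was possible because each condition has 1 array. Signal over background limits the dim genes: 8220 genes had no value in LKO and 981 only a bound. Spread between mice, cell composition and the state of the targeted gene cannot be read from these arrays.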
